A study of Trichechus manatus latirostris with 11 samples.

Results

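Genes that modify or move foreign compounds were examined in buffy coat, the white cell and platelet layer of spun blood, of Florida manatees (Trichechus manatus latirostris). Members were the rows of the deposited gene table whose transcript record carries, in the RefSeq gene table of TriManLat1.0, a symbol of the cytochrome P450 (CYP), UGT, SULT, GST, ALDH, FMO or ABC families, NR1I or AHR. This rule used names and no measured value, and it found 40 rows with 38 symbols among 15298 rows, of which 10080 (65.9%) carry a symbol. The RefSeq table holds 77 symbols that match. Of the 39 with no matched row, AHR, NR1I2, NR1I3, ABCB1, ABCG1 and ABCG2 are named here. Each is a sensor of foreign compounds or an ABC exporter, and they were not analysed here. No symbol of the CYP pattern is in the RefSeq table, and UGT8 is the only UGT symbol.

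RNA-seq libraries were made from 4 adult animals of the red tide group, treated for red tide illness at the Lowry Park Zoo, and from 7 adult controls. Blood of 2 red tide animals was drawn at arrival and of the other 2 after a week of care. Of the controls, 2 were sampled in Brevard County (Indian River Lagoon) and 4 at Crystal River during health assessments, and 1 was recovering from pneumonia at the zoo. Ribosomal and globin RNA was depleted in every library. Sampling place is almost wholly shared with group, so place and red tide illness cannot be told apart, and the sources used here differ on whether red tide samples were frozen at once or kept in RNAlater.

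The table holds, for every row, the mean normalized count (reads divided by the library's size factor) of 4 libraries and of 7 libraries. Its columns do not name their groups, so the values are called the 4-library mean, as many libraries as red tide animals, and the 7-library mean, as many as controls. The directions in which the study describes differences with red tide, for CXCR2 and MMP9 among others, would call for the opposite assignment. No ratio below is therefore read as a rise or fall with red tide, only as a difference between the 4-library and the 7-library mean. Ratios are given as log2 of the first divided by the second. A group mean is the authors' value and has no error. For 27 member rows the whole reads of each of the 4 libraries could be recovered from the mean, and for 13 rows those of all 11 libraries, which gives single values and a spread. Recovered libraries are not linked to animals, nor to the time in care at sampling, and are named by size factor, a measure of relative depth: 1.56, 1.03, 0.62 and 0.372 in the 4-library group (median 0.824) and 0.702 to 1.73 in the 7-library group (median 1.17). The floor of 3 reads was 1.92, 2.92, 4.84 and 8.07 normalized counts in the 4 libraries in that order, and 1.73 to 4.27 in the 7, so the 0.372 library was the least precise. Intervals and floors cover counting error only and treat reads as independent. Sequencing was paired-end, so 2 reads may be mates of 1 fragment. Among rows with all reads of the 7 libraries in 1 library, 424 had 2 reads and 294 had 1. Intervals may thus be too narrow and floors too low. Levels are compared between groups and not between genes, because no transcript length was at hand.

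Foreign compounds, lipophilic algal toxins among them, are handled in steps. Oxidizing enzymes expose or create a reactive group, conjugating enzymes attach glutathione, sulfate or a sugar, and ATP-driven ABC transporters move the product across a membrane. Brevetoxins, the polyether neurotoxins of Florida red tides, act on voltage-gated sodium channels and are cleared mainly by the liver. Leukocytes carry a smaller set of these enzymes, and many family members have housekeeping roles in lipid, heme or amino acid metabolism rather than in drug handling.

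Of the member rows, 29 of 40 lay within 2-fold between the group means, as did 10052 of all 15298 rows. The 4-library mean was at least 2-fold higher in 5 of 40 member rows (12.5%), where 23.9% of all rows were, and at least 2-fold lower in 6 (15%), where 10.4% of all rows were. The higher rows were ABCD2, ABCC11, ABCC8, ALDH5A1 and FMO1. The lower rows were ABCD3 (record XM_004378761.1), UGT8, SULT1C4, ABCC5 (record XM_004382292.1), ABCA1 and FMO4. Among rows with a mean over all libraries of at least 10 normalized counts, 3 of 28 members were higher (10.7%, against 12.3% of all such rows) and 4 of 28 lower (14.3%, against 9.59%). At that mean the shares lie near the background. Of the 3 higher rows, ABCD2 and FMO1 reach it only through the 4 libraries, as their 7-library means were 1.53 and 7.36. The 4 lower rows, UGT8, SULT1C4, ABCC5 and FMO4, had both means above 10. The median log2 ratio was −0.20 over the members and 0.14 over all rows, and 0.09 over the 28 members and −0.01 over all rows with a mean of at least 10.

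**Figure D1:**
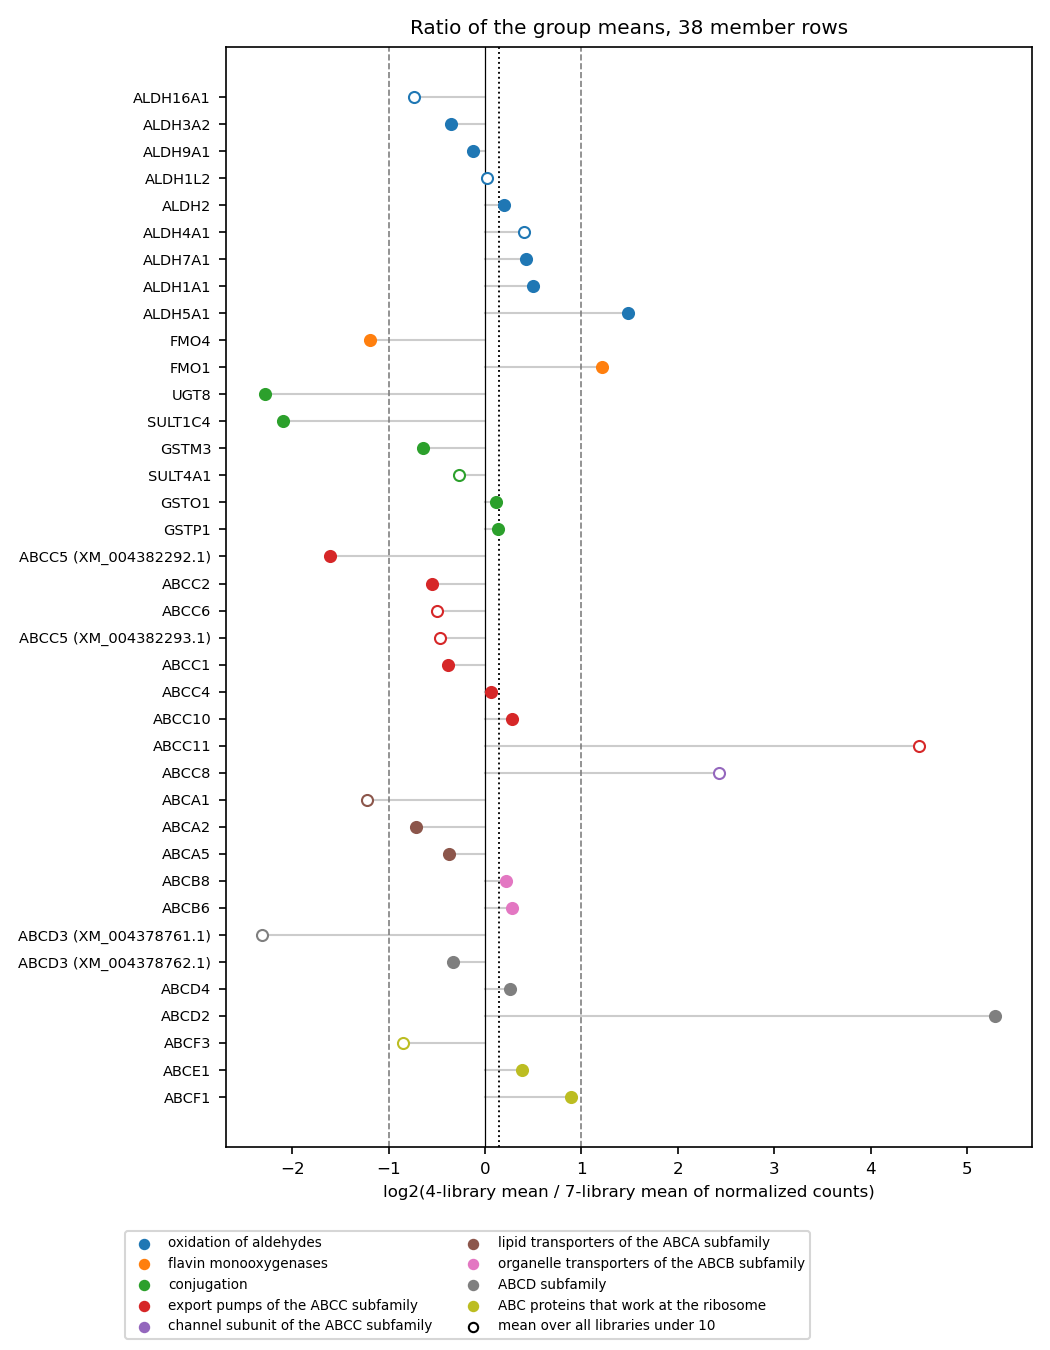
The horizontal axis is the log2 ratio of the 4-library mean to the 7-library mean of normalized counts for each of 38 member rows, grouped by role. Dashed lines mark a 2-fold difference and the dotted line the median of all rows, 0.14. Open points have a mean over all libraries under 10. Most points lie within the dashed lines, ABCD2 at 5.29 is the farthest to the right, and ABCD3 (record XM_004378761.1), UGT8 and SULT1C4 are the farthest to the left.

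In the 27 member rows with recovered values, all 4 libraries lay above the 7-library mean in 2 rows, ABCB8 and ABCF1 (7.41%, against 10.6% of all recovered rows). All 4 lay below it in 3 rows, ABCA2, UGT8 and ABCD3 (record XM_004378761.1), which is 11.1% against 17.8% of all recovered rows. Between these ends, 1 library was above in 8 rows, 2 in 7 rows and 3 in 7 rows. Of the 15 members with at least 20 reads in the 4 libraries, the highest value fell in the library of size factor 0.372 in 5 (33.8% of all such rows), of 0.62 in 5 (29.6%), of 1.03 in 3 (16.8%) and of 1.56 in 2 (19.8%).

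**Figure D2:**
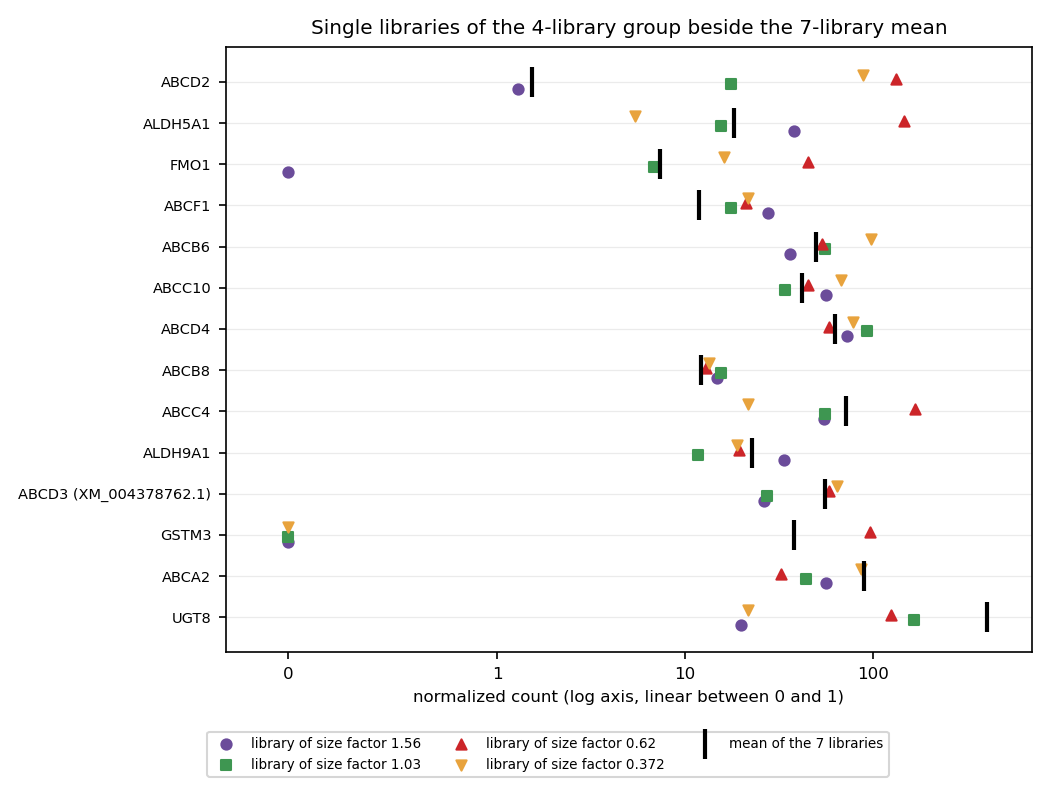
The horizontal axis is the normalized count, on a log axis that is linear between 0 and 1. Coloured symbols are the 4 single libraries of the 4-library group and the black bar is the mean of the 7 libraries, for 14 recovered member rows with a mean over all libraries of at least 10. All 4 symbols lie to the right of the bar in ABCF1 and ABCB8 and to the left in UGT8 and ABCA2, and a single library of 0.62 stands out in GSTM3 and ALDH5A1.

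Aldehyde dehydrogenases oxidize reactive aldehydes to acids, and 9 of the 17 ALDH symbols of the RefSeq table had a row. Their median log2 ratio was 0.20, and 1 of 9 was past 2-fold. ALDH1A1, which makes retinoic acid from retinaldehyde, had a 4-library mean of 399 and a 7-library mean of 282 (log2 ratio 0.50). ALDH7A1, an enzyme of lysine breakdown, had 322 and 239 (0.43). ALDH2, the mitochondrial enzyme for acetaldehyde, had 145 and 127 (0.20), while ALDH3A2, which oxidizes fatty aldehydes, had 412 and 526 (−0.35). These differences were all under 1.5-fold, and the spread of single libraries is not known for these 4 genes.

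ALDH5A1, the succinic semialdehyde dehydrogenase of GABA breakdown, was the ALDH row with the largest ratio, 51.0 ± 64.2 (SD, n = 4) normalized counts over the 4 libraries and a 7-library mean of 18.3 (log2 ratio 1.48, 2.79-fold). Its 4 libraries, in order of size factor from 1.56 to 0.372, held 37.9, 15.6, 145 and 5.38 normalized counts. The 0.62 library alone carried 71.2% of the summed normalized count, and 2 of the 4 libraries lay below the 7-library mean. Without that library the log2 ratio was 0.10, so the 2-fold difference rested on it.

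ALDH9A1, which acts in carnitine synthesis, had 20.8 ± 9.07 (SD, n = 4) against a 7-library mean of 22.7. The 3 weakly counted rows ALDH4A1, ALDH1L2 and ALDH16A1, with 4 to 18 reads over the 4 libraries, had means of 0.884 to 4.11 in the 4 libraries and 1.47 to 3.10 in the 7, and none passed 0.05 in the exact two-sided permutation test over libraries (p = 0.679, 1 and 0.897 in that order). In ALDH4A1, the proline pathway enzyme, 3 of the 4 libraries held 4.84 to 5.84 normalized counts and the 0.372 library held no read, while the 7 libraries spanned 0 to 11.1.

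Flavin monooxygenases add oxygen to nitrogen or sulfur in drugs and amines, and both rows passed 2-fold in opposite directions. FMO1 had normalized counts of 0, 6.82, 45.1 and 16.1 in the 4 libraries (17.0 ± 19.9, SD, n = 4) and a 7-library mean of 7.36 (log2 ratio 1.21). Those values rest on 0, 7, 28 and 6 reads, and without the 0.62 library the log2 ratio was 0.06. FMO4 had a 4-library mean of 125 and a 7-library mean of 285, a 2.29-fold lower level in the 4 libraries (log2 ratio −1.20), with no single values.

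The conjugating enzymes held the 2 lowest ratios among members with a mean of at least 10. SULT1C4, a cytosolic sulfotransferase that attaches sulfate to phenols, had a 4-library mean of 706 and a 7-library mean of 3022, a 4.28-fold lower level (log2 ratio −2.10). UGT8 bears a UGT symbol but is the ceramide galactosyltransferase, which adds galactose to ceramide and is best known from myelin. It had 19.9, 165.5, 124 and 21.5 normalized counts in the 4 libraries (82.8 ± 73.6, SD, n = 4), from 31, 170, 77 and 8 reads, and a 7-library mean of 403 (4.87-fold lower, log2 ratio −2.28). Each of the 4 libraries lay below the 7-library mean, although the 1.03 and 0.62 libraries stood well above the other 2. Leaving out each of the 4 in turn gave log2 ratios of −2.87 to −1.96.

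Glutathione S-transferases were near parity apart from GSTM3. GSTP1, the abundant pi-class enzyme of blood cells, had 279 against 255 (log2 ratio 0.13), and GSTO1, the omega-class enzyme, had 121 against 112 (0.11). GSTM3, a mu-class enzyme, had a 4-library mean of 24.2 and a 7-library mean of 37.8 (log2 ratio −0.64), but all of its 60 reads in the 4-library group came from the 0.62 library, at 96.7 normalized counts. The other libraries held 0 reads, which allows up to 1.92, 2.92 and 8.07 normalized counts at size factors of 1.56, 1.03 and 0.372. Among 6432 rows with at least 20 recovered reads in the 4 libraries, 3 rows (0.0466%) had all of them in 1 library, and GSTM3 was the one with the most reads. Its 7-library mean could not be written with reads in fewer than 4 of the 7 libraries. SULT4A1, a sulfotransferase known from brain, had 2 reads in the 4 libraries and 3 in the 7 (exact two-sided permutation p = 1).

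Of the ABC transporters, 21 of 42 RefSeq symbols had a row, 23 rows in all, with a median log2 ratio of −0.38. They comprised 3 rows at least 2-fold higher and 3 at least 2-fold lower in the 4-library mean. The ABCC export pumps, which carry glutathione, glucuronide and sulfate conjugates out of cells, had a median of −0.43 over 8 rows, with 1 higher and 1 lower. ABCC1, the leukotriene and glutathione conjugate pump, had 175 against 228 (log2 ratio −0.38), and ABCC2, the bile canalicular pump of liver, had 102 against 148 (−0.55). ABCC10, a broad drug pump, had 50.6 ± 14.2 (SD, n = 4) against 41.7 (0.28), and its libraries lay on both sides of the 7-library mean.

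ABCC5, which exports cyclic nucleotides and nucleotide analogs, had 2 rows. Record XM_004382292.1 had a 4-library mean of 141 and a 7-library mean of 429 (3.05-fold lower, log2 ratio −1.61). Record XM_004382293.1 had 1.21 ± 1.40 (SD, n = 4) and 1.68 ± 2.77 (SD, n = 7), and the groups overlapped (exact two-sided permutation p = 1). How reads shared by the 2 records were assigned is not given in the sources used here, so each row is uncertain as a measure of one transcript.

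ABCC4, an exporter of cyclic nucleotides and prostaglandins that is also known from platelet granules, had nearly equal group means of 74.8 and 71.5 (log2 ratio 0.06). Its 4 libraries differed widely, with 54.5, 55.5, 168 and 21.5 normalized counts (SD 63.9, n = 4), so the ratio moved from −0.71 to 0.37 as each was left out. The 4 libraries held 18.2, 18.6, 56.0 and 7.19% of its summed normalized count, and 18.2, 17.3, 57.4 and 7.13% of that of GP9, a platelet receptor subunit. For ALDH5A1 the shares were 18.6, 7.64, 71.2 and 2.64%, and for GP1BB, another platelet receptor subunit, 26.0, 20.2, 49.4 and 4.46%. These genes were set side by side only once their values were known. The platelet markers ITGB3, TUBB1 and ITGA2B have no single values. GP9 itself had 66.1 against 18.7 in the group means, while the ABCC4 means were nearly equal, and the part of platelets in the ABCC4 and ALDH5A1 values was not tested.

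ABCC11 and ABCC8 were higher in the 4-library mean on few reads. ABCC11, a pump best known from apocrine glands, had 0, 2, 5 and 5 reads in the 4 libraries, or 0, 1.95, 8.06 and 13.5 normalized counts (5.86 ± 6.11, SD, n = 4), and 2 reads in all in the 7 libraries, both in 1 library at 1.81 normalized counts. The ratio of the means was 22.7, with a 95% Poisson interval of 6.28 to 187 for the 2 reads. That interval is too narrow if the 2 reads are mates of 1 fragment. The exact two-sided permutation test gave p = 0.0485, and p = 0.319 after Benjamini-Hochberg adjustment over all rows tested. Groups overlapped, since the 1.56 library held no read, and without any 1 of the other 3 libraries of the 4-library group the exact p was 0.133. ABCC8, the sulfonylurea receptor subunit of a potassium channel rather than a pump, had 2.57, 0, 16.1 and 2.69 normalized counts in the 4 libraries and 0 to 4.27 in the 7 (log2 ratio 2.42, exact two-sided permutation p = 0.182). Without the 0.62 library its log2 ratio was 0.81. ABCC6, a liver and kidney transporter needed for ATP release, had 3 reads in the 4 libraries and 17 in the 7 (exact two-sided permutation p = 0.727).

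ABCD transporters feed fatty acids into peroxisomes, except ABCD4, which moves cobalamin out of lysosomes. ABCD2, a carrier of very long chain fatty acids, had the highest ratio of all members. Its normalized counts were 1.28, 17.5, 132 and 88.8 in the 4 libraries (59.9 ± 61.3, SD, n = 4), from 2, 18, 82 and 33 reads. In the 7 libraries they were 2.31, 0, 0, 0, 1.81, 0.91 and 5.70 (1.53 ± 2.06, SD, n = 7), from 11 reads in all. Thus 3 of the 4 libraries stood above every one of the 7, and the library of size factor 1.56 lay among them. The means differed 39.1-fold (log2 ratio 5.29), and leaving out any 1 library kept the log2 ratio between 4.55 and 6.16. The exact two-sided permutation test gave p = 0.0242, and p = 0.319 after Benjamini-Hochberg adjustment over all rows tested, which does not pass 0.05. Without any 1 of the 3 libraries with over 10 normalized counts the exact p was 0.0667.

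ABCD4 had 75.3 ± 14.3 (SD, n = 4) normalized counts against a 7-library mean of 62.8 (log2 ratio 0.26). ABCD3, which carries branched-chain and dicarboxylic fatty acids, had 2 rows. Record XM_004378762.1 had 44.0 ± 20.1 (SD, n = 4) against 55.3 (−0.33). Record XM_004378761.1 had 3 reads in 1 of the 4 libraries and 21 reads in 6 of the 7, a level 4.95-fold lower (95% Poisson interval 1.695 to 24.02 for the 3 reads), and the exact two-sided permutation test gave p = 0.103. As for ABCC5, the sources used here do not say how reads common to both records were assigned.

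**Figure D3:**
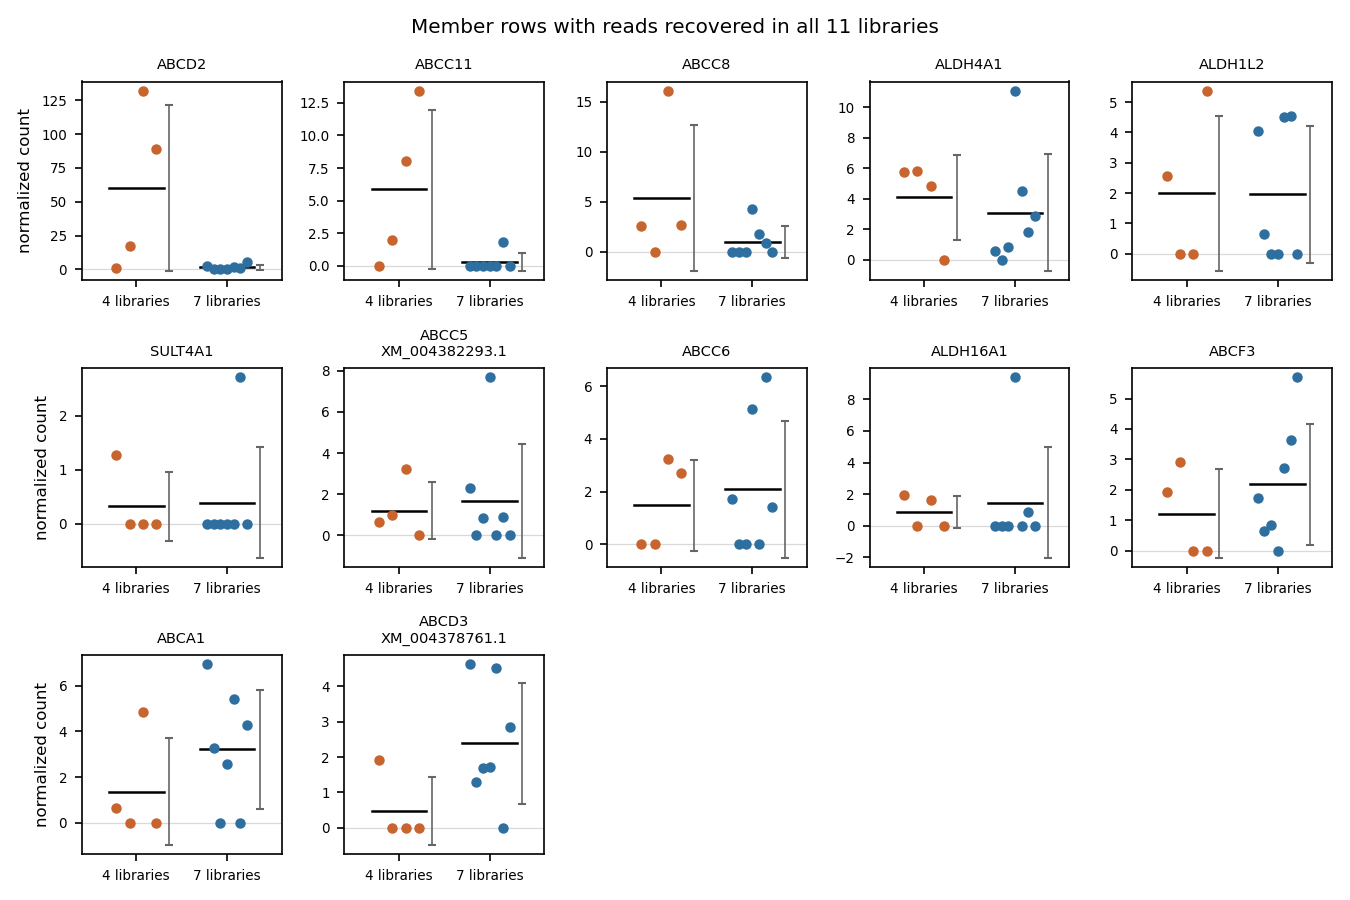
The vertical axis of each panel is the normalized count of a member row in each single library, for 12 of the 13 member rows with reads recovered in all 11 libraries. Points are libraries, horizontal lines are group means and the bars beside them are 1 SD (n = 4 and n = 7). In no panel are the groups fully apart, and ABCD2 comes nearest, with 3 of 4 libraries above the 7.

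Across the 13 members with all 11 libraries recovered, which had 2 to 135 reads over the 4 libraries and 2 to 34 over the 7, the groups overlapped in every row, where 2.98% of all 4836 such rows did not overlap. An exact two-sided permutation p under 0.05 was reached by 2 of 13, ABCD2 and ABCC11 (15.4%, against 15.2% of all such rows). After Benjamini-Hochberg adjustment 0 of the 4836 rows passed 0.05, with 734 at an unadjusted p under 0.05 and a lowest adjusted p of 0.204. The smallest p this design can give is 0.00606. Even rows at that p had an adjusted p of 0.204, so no row could pass after adjustment. Failing to pass therefore says little about a single row. The 7 single values exist only for rows with a 7-library mean under 10, so members well counted in the 7 libraries have no test. The limit on the 4-library mean was higher, so the choice of tested rows was not even between the 2 directions. ABCD2, with means of 59.9 in the 4 libraries and 1.53 in the 7, could be tested. UGT8, with means of 82.8 in the 4 libraries and 403 in the 7, could not. The shares of 15.2% and 2.98% hold only for rows chosen in this way.

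ABCA transporters move lipids out of cells or into endosomes, and all 3 rows had the lower value in the 4-library mean (median log2 ratio −0.72). ABCA1, the cholesterol exporter that loads apolipoprotein A-I, was weakly counted, with 0.64, 0, 4.84 and 0 normalized counts in the 4 libraries (1.37 ± 2.33, SD, n = 4) and 0 to 6.93 in the 7 (3.21 ± 2.61, SD, n = 7). The groups overlapped (log2 ratio −1.23, exact two-sided permutation p = 0.297). ABCA2, an endolysosomal lipid transporter, had 55.8, 43.8, 32.2 and 86.1 normalized counts in the 4 libraries (54.5 ± 23.2, SD, n = 4), all below the 7-library mean of 89.5 (log2 ratio −0.72). ABCA5, of lysosomes, had 1016 against 1320 (−0.38).

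The 3 ABCB rows, among them ABCB6 and ABCB8, which serve heme and iron handling in mitochondria and other organelles, had a median log2 ratio of 0.22, and none passed 2-fold. ABCB8 held 14.8, 15.6, 12.9 and 13.5 normalized counts, a narrow spread (14.2 ± 1.22, SD, n = 4), against a 7-library mean of 12.2 (log2 ratio 0.22). ABCB6 had 60.4 ± 25.8 (SD, n = 4) against 49.7 (0.28).

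ABCE1, ABCF1 and ABCF3 have the ATPase fold but no membrane domain, and work at the ribosome. ABCE1, which splits ribosomes after termination, had 1128 against 867 (log2 ratio 0.38). ABCF1 had 27.6, 17.5, 21.0 and 21.5 normalized counts (21.9 ± 4.18, SD, n = 4), each above the 7-library mean of 11.8 (1.86-fold, log2 ratio 0.89, and 0.76 to 0.98 as each of the 4 was left out). ABCF3 rested on 6 reads in the 4 libraries and 16 in the 7 (exact two-sided permutation p = 0.442).

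Other genes of the pathway were described from lists of partners, by rows past 2-fold. Over all rows, 23.9% were at least 2-fold higher in the 4-library mean and 10.4% at least 2-fold lower. The partner lists hold too few rows to be set apart from these shares. The same shares are the background for the cell type markers below. Among 8 rows for partners and feedback genes of AHR, the sensor of planar aromatic compounds, 2 were higher and 0 lower (median log2 ratio 0.29). TIPARP, an AHR-induced repressor, had 5774 against 1829 (1.66), and ARNT2 had 5.995 against 1.86 (1.69, exact two-sided permutation p = 0.248), while the chaperone partner HSP90AB1 had 255 against 199 (0.36). Among 7 rows for nuclear receptor partners of NR1I, 2 were higher and 0 lower (median 0.49). PPARGC1A, a metabolic coactivator, had 8.28 against 0.517 (4.00, exact permutation p = 0.0182, adjusted p = 0.286), and RXRG had 6.03 against 0.621 (3.28, exact permutation p = 0.0485, adjusted p = 0.319). These ratios rest on few reads, 4 for PPARGC1A and 6 for RXRG over the 7 libraries. PPARGC1A had 2, 4, 14 and 2 reads in the 4 libraries.

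Among 8 rows for electron donors of cytochrome P450 and other oxidizing enzymes, 2 were higher and 1 lower (median 0.53). EPHX1, the microsomal epoxide hydrolase, had 90.5 against 44.1 with all 4 libraries above the 7-library mean (1.04). AOX1, aldehyde oxidase, had 9.76 against 0.498 (4.29, exact permutation p = 0.0606), with 4 reads over the 7 libraries. FDXR had 3.38 against 7.57 (−1.17, exact permutation p = 0.121, adjusted p = 0.466), from 13, 2, 2 and 0 reads in the 4 libraries. Of 8 rows for the supply of conjugation cofactors, 2 were higher and 2 lower (median 0.09). GCLC, of glutathione synthesis, had 4.17 against 0.553 in record XM_004386815.1 (2.92), where the groups did not overlap (exact permutation p = 0.00606, the smallest possible, adjusted p = 0.204). That record had 5 reads over the 7 libraries. Record XM_004386814.1 had 134 against 81.3 (0.72). UGDH, which makes UDP-glucuronic acid, had 22.8 against 46.9 (−1.04).

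Among 4 rows for other conjugating enzymes 1 was higher and 0 lower (median 0.33), with the histamine methyltransferase HNMT at 152 against 276 (−0.86). Of 8 rows of the NRF2 pathway, the response to electrophiles, 2 were higher and 0 lower (median 0.40). NFE2L2, which encodes NRF2, had 67.1 against 32.8 in record XM_004375475.1 (1.03) and 54.0 against 82.7 in XM_004375473.1 (−0.62), opposite directions in 2 records of the same gene. None of 5 rows of LXR and cholesterol efflux passed 2-fold (median −0.39), nor did TAP1 and TAP2, peptide transporters of the ABC fold (855 against 1136 and 941 against 1163).

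Cell type markers differed at least 2-fold in the same direction in most neutrophil rows and in all platelet rows, but not in other cell types with several rows. In bulk RNA, fewer cells of a type and less RNA per cell cannot be told apart. Of 10 listed neutrophil markers 7 had a row, 6 were at least 2-fold lower in the 4-library mean and MPO was the exception (median log2 ratio −2.41, summed means 2006 against 11870). Of 7 platelet markers 5 had a row and all 5 were at least 2-fold higher (median 1.83, summed means 15210 against 4388). Monocyte markers had 5 rows (1 higher, 0 lower, median −0.14), T cell markers 3 rows (0 higher, 1 lower, −0.42), B cell markers 3 rows (0 and 0, −0.17) and the NK cell marker PRF1 a log2 ratio of 0.36. Erythroid markers had 3 rows (1 higher, 1 lower, −0.41), hepatocyte markers 5 rows (2 higher, 2 lower, 0.88, summed means 126 against 221) and the endothelial marker KDR 0.62. No marker row was listed at 0 in either mean, but neither was any row of the whole table, so this shows nothing about presence. Some leukocyte markers were well counted in both means, such as IL7R with 3424 against 3255 and MS4A1 with 370 against 415.

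Most neutrophil markers were lower and all platelet markers higher in the 4-library mean. Any member past 2-fold thus shares its direction with one of these sets by definition, which links it to neither cell type. Over the 4 libraries, ABCD2 held 0.535, 7.31, 55.1 and 37.0% and FMO1 0, 10.0, 66.3 and 23.7% of the summed normalized count. UGT8 held 6.01, 50, 37.5 and 6.502% of its summed normalized count. The neutrophil markers CXCR2, MMP9 and PADI4 held 4.91, 14.5, 64.1 and 16.5%, then 8.81, 28.6, 37.9 and 24.6%, and 31.3, 32.4, 16.8 and 19.6%. The 3 markers thus differed from each other as much as from UGT8, and the part of cell composition in these members was not tested. The neutrophil markers S100A8, S100A9 and CSF3R have no single values. MPO, the exception above, was left out, with 0, 4.87, 4.84 and 8.07 normalized counts.

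**Figure D4:**
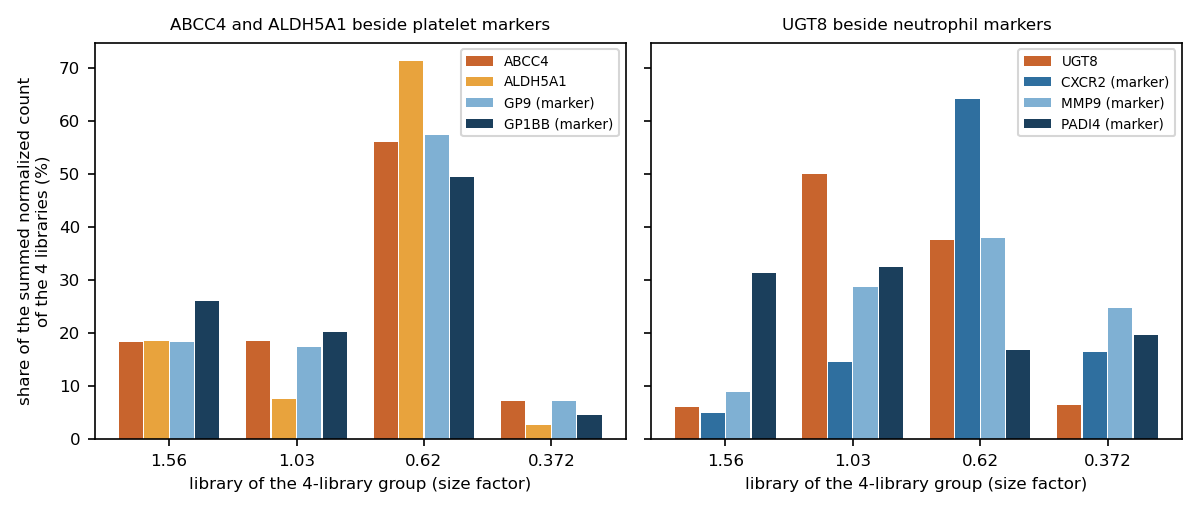
The vertical axis is the share (%) of a gene's summed normalized count held by each of the 4 libraries, which stand on the horizontal axis by size factor. Left, ABCC4 and ALDH5A1 beside the platelet markers GP9 and GP1BB; right, UGT8 beside the neutrophil markers CXCR2, MMP9 and PADI4. The 0.62 library holds the tallest bar of every gene on the left, and also of CXCR2 and MMP9 on the right. The bars on the right have no common order. The genes on the left were set side by side only once their values were known.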

How the data were processed

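RNA-seq was done on buffy coats of 11 manatees, 4 in the red tide group and 7 controls, with 1 library each. The authors trimmed reads with Cutadapt, mapped them to TriManLat1.0 with Bowtie2, discarded duplicates and reads mapped to more than 1 place, and compared groups with DESeq in the DEB tool. Counting program and annotation release: not given in the sources used here. Each deposited value is a signal that the authors made by scaling counts with DESeq size factors and averaging them, once over the 11 libraries and once per group. The table's columns of the authors' fold change, log2 fold change, p-value and adjusted p-value were not used. It has no column of a single sample.

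The overall mean was 4 and 7 parts of the group means in all 15298 rows, with a largest relative deviation of 3.34e-09. Symbols were matched by transcript record without version (10080 rows; 1658 matched with version). Whole reads per library were searched for 4-library means under 100 and 7-library means under 10, and kept where a single combination matched within 6e-10 (6e-09 for means of at least 10). This gave 10143 of 10159 and 4852 of 5439 rows. Tested on simulated data of 1500 rows, 99.65% and 93.94% gave 1 combination only, which was right in 100%.

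Ratios of means carry no test. Single values were compared with the exact two-sided permutation test over all 11 libraries, with Benjamini-Hochberg adjustment over the 4836 rows tested. Genes described one by one were AHR and NR1I members, the 10 highest and 10 lowest ratios at a mean of at least 10, the largest in each family, rows without overlap, and CYP1A1, CYP1A2, CYP1B1, ABCB1, ABCC1, ABCG2, ABCA1, ABCG1, GSTP1 and UGT1A1 where a row exists. Other members named were chosen after their values were seen. For 2 members, single results are not reported here, and the figures leave them out, while counts and medians over members include them. The members and all lists were chosen with earlier results of these data known. Alternatives were the fold threshold, a pseudocount of 1, a mean of at least 10, centring, 1 row per symbol, matching with version, log2 values in the test, and leaving out libraries. Python 3.11.15, numpy 2.4.6, pandas 2.3.3, scipy 1.17.1 and matplotlib 3.10.9 were used.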

Additional observations from a re-analysis of the deposited data

Results flagged for a closer look

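In 12 of the 37 groups of single libraries tested among the members, the highest library was separated from the others by more than the 95% critical value of Dixon's test. Chance gives about 1 in 20 groups for normally distributed values, but sparse counts pass it more often. Over all recovered rows 16.8% of groups of 4 libraries and 38.6% of groups of 7 passed, beside 5 of 25 and 7 of 12 among the members. In 5 of the 12 all reads lay in 1 library, which passes the test by construction, and 6 rest on fewer than 10 reads each. In the 4-library group the highest libraries were 4.84 normalized counts for ABCA1, 16.1 for ABCC8, 1.92 for ABCD3 (record XM_004378761.1), 96.7 for GSTM3 and 1.28 for SULT4A1. These fell in the 0.62 library for ABCA1, ABCC8 and GSTM3 and in the 1.56 library for ABCD3 and SULT4A1. In the 7-library group they were 1.81 for ABCC11, 7.68 for ABCC5 (record XM_004382293.1), 4.27 for ABCC8, 5.70 for ABCD2, 9.39 for ALDH16A1, 11.1 for ALDH4A1 and 2.72 for SULT4A1. The library of size factor 1.17 held the highest value of ABCC5, ABCC8, ALDH16A1 and ALDH4A1.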

How the results depend on the processing

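The count of 5 members at least 2-fold higher was 3 at a 4-fold threshold, 3 at a mean of at least 10 and 3 with records matched by version, to which 7 of 40 rows belong. The count of 6 members at least 2-fold lower was 10 at a 1.5-fold threshold, 3 at 4-fold and 1 with records matched by version. Leave-one-out over the 4 libraries, added after seeing the data, gave 2 to 5 higher and 6 to 10 lower members, with 2 and 10 without the 0.62 library. The median log2 ratio of −0.20 was −0.10 with a pseudocount of 1, 0.088 at a mean of at least 10, −0.34 centred on the median of all rows, which is itself 0.14, −0.055 with 1 row per symbol and −0.27 with records matched by version, so its sign depends on the weakly counted rows. Leaving out single libraries gave 0 to 2 members with an exact permutation p under 0.05. Of 105 alternatives for the 22 genes described one by one, 97 kept their side of the 2-fold threshold, 7 fell below it (5 for ABCA1, 1 each for ALDH5A1 and FMO1), 1 passed it (ABCA2, −1.03 without the 0.372 library) and 0 past it turned to the other side. The sign changed in 2, both within 2-fold (ABCB6, −0.04 without the 0.372 library, and GSTP1, −0.01 when centred). GSTM3 without the 0.62 library has no read left in the 4-library group, so no value is given. Depth limits the 12 members under a mean of 10. No paired analysis was possible because the means carry no replicate numbers and recovered libraries are not linked to samples.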
